A study of Mus musculus with 2 samples.

Results

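Genes that mark T follicular helper cells in the mouse, namely Cxcr5, Il21, Bcl6, Sostdc1, Tox2 and Izumo1r, were followed through single-cell RNA sequencing of immune cells from the gut lamina propria. They are 6 of the 32285 genes in the deposited count matrices, taken by their symbols, and they were chosen by their UMI counts in CD4 T cells against B cells and other cells of these same libraries. Their levels in CD4 T cells, in other cells and in the 2 libraries are therefore a description and not a test. The study sequenced 2 libraries, labelled CD163_NC and CD163_FL, from CD45+ cells of the mouse colon that had been collected at the interphase of a Percoll gradient and sorted after exclusion of dead cells. By its title the series covers WT animals and animals lacking CD163+ macrophages, but the labels do not say which library is which genotype, and they give no allele, Cre driver, strain, age, treatment or number of animals. The libraries are called here by their labels only. Each group is 1 library, so nothing can be tested between them. All intervals are 95% intervals for counting error alone, which do not cover differences between animals or preparations.

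T follicular helper cells are CD4 T cells that enter B cell follicles and help B cells through the germinal center reaction, in which B cells mutate and select their antigen receptors. The receptor CXCR5 guides them towards the follicle, the transcriptional repressor BCL6 sets their fate, and the cytokine IL-21 acts on B cells through its own receptor. In the gut this takes place in lymphoid follicles and patches of the wall, and part of the IgA response to microbes comes from it. CXCR5 and BCL6 are also made by B cells, so both genes are read here in B cells as well as in T cells.

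Il21 and Bcl6 encode the cytokine and the repressor named above, and the sequence just upstream of each is shown for its base composition and the transcription factor letters it holds. The sequences are the 250 bases before the annotated start, 5′ to 3′ on the gene's own minus strand, from RefSeq with build GRCm38.p6. Il21 lies at chr3:37222759-37232636 and its window at chr3:37232637-37232886. Bcl6 lies at chr16:23965052-23988852 and the window of the first of its 2 entries at chr16:23988853-23989102. Capitals mark TGGAAA, the core recognised by NFAT factors, in Il21, and TTCNNNGAA, recognised by STAT factors, and CTTTGNT, recognised by TCF and LEF factors, in Bcl6, on either strand.
Il21: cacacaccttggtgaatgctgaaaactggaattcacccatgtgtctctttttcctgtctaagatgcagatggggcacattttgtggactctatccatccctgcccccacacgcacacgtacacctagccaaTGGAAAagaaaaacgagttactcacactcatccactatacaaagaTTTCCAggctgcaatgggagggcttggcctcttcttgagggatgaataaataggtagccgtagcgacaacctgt
Bcl6: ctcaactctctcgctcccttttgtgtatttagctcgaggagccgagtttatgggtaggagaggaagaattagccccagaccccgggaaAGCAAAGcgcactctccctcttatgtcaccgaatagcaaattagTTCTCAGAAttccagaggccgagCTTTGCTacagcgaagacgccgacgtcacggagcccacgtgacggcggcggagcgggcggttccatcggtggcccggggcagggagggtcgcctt
The Il21 window had 47.6% G and C and 5 CG dinucleotides, and the Bcl6 window 58.4% and 21, beside medians of 52.4% and 6 over 32851 promoter windows of the same length. TGGAAA occurred at 2 places in the Il21 window and at none in the printed Bcl6 window, and 18.6% of all windows held it. The printed Bcl6 window had 1 match to TTCNNNGAA and 2 to CTTTGNT, which 7.02% and 16.0% of all windows held, and none of these matches overlapped another. The second Bcl6 entry, at chr16:23981284-23981533, had 54.8% G and C, 13 CG dinucleotides, 3 matches to TTCNNNGAA, 1 to TGGAAA that overlaps the first of them, and none to CTTTGNT, so the letters differ between the starts of Bcl6. A match is a run of letters and not a measured site. The other genes lie on chromosome 9 (Cxcr5, 44511787 to 44561877, minus strand, and Izumo1r, 14885814 to 14903949, minus strand), chromosome 12 (Sostdc1, 36314139 to 36318452, plus strand) and chromosome 2 (Tox2, 163203125 to 163324170, plus strand), and the GENCODE annotation of GRCm38 lists all 6 as protein-coding.

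After filters on depth and mitochondrial share and the removal of called doublets, 9756 cells remained in CD163_NC and 13715 in CD163_FL, with a median of 6040 and 6462 unique molecular identifiers (UMIs, counted RNA molecules) per cell. The cells fell into 27 clusters, of which 25 were given 1 of 18 class names from marker genes, and 38 barcodes remained in both libraries. Cd163 itself had 15 UMIs in CD163_NC and 8 in CD163_FL, too few to check the labels. The CD4 T cell-like class, made of clusters 0, 1 and 4, held 1577 and 2358 cells. Its Cd3e level, a subunit of the T cell receptor complex, was 458 and 337 CPM (UMIs of the gene per 1000000 UMIs summed over the cells of a class), against 9.02 and 6.30 in B cell-like cells. Cd4 stood at 344 and 303 CPM, Cd8a at 7.16 and 13.8, and the B cell gene Cd79a at 13.8 and 4.29. Cluster 0 carried all 8 CD4 T cell markers, but none of them was among the 10 genes that led it, which included Tnfsf8, Ntrk3, Tshz2, Tbc1d4, Eea1, Tox, Lrig1, Plagl1 and Tcf7, and Tcf7 is also a marker of naive-like T cells. For that reason the libraries are compared below cluster by cluster, with the sum of the 3 clusters beside them. B cell-like cells numbered 1937 and 1206, germinal center B cell-like cells 310 and 54, and Foxp3-bearing regulatory T cell-like cells 122 and 112. Ms4a1, the B cell surface gene CD20, was at 684 and 835 CPM in the germinal center class. The natural killer or group 1 innate lymphoid class had Cd3e at 428 and 218 CPM and Cd8a at 130 and 81.7. Its levels are therefore not those of innate cells alone. Class names rest on marker lists and are mostly written below without the ending -like. The 6 genes took no part in the clustering.

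Cxcr5, the chemokine receptor that reads the follicular signal CXCL13, was a B cell gene first. In CD163_NC it stood at 188 CPM in B cells, 85.2 in germinal center B cells and 50.2 (45.7 to 54.9) in CD4 T cells. Regulatory T cells had 34.6 CPM, and their ratio to CD4 T cells, with CD4 T cells 1.45 times higher (0.995 to 2.19), includes equal levels. In CD163_FL the levels were 153 in B cells, 138 in germinal center B cells, 53.8 in group 3 innate lymphoid cells and 8.40 (7.05 to 9.93) in CD4 T cells, where the B and germinal center levels overlapped in their intervals. Of all Cxcr5 UMIs, B and germinal center B cells together held 75.4% in CD163_NC and 69.6% in CD163_FL, and CD4 T cells 14.3% and 10.8%. CD8 T cells, which should largely lack the gene, had 3.26 and 1.73 CPM.

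Izumo1r encodes a folate receptor family protein, known as FR4, that is carried by regulatory and follicular helper T cells. Its level was highest in regulatory T cells in both libraries, at 159 CPM in CD163_NC and 142 in CD163_FL. CD4 T cells had 107 (100 to 114) and 33.0 (30.3 to 35.9). In CD163_NC they were second, with regulatory T cells 1.49 times higher (1.23 to 1.78). Naive-like T cells had 53.8 and 34.2 CPM, and in CD163_FL the interval of their ratio to CD4 T cells included equal levels. The gamma delta T cell class, which also carried Cd4 at 179 and 142 CPM, had 13.6 and 6.44. B cells, at 1.95 and 0.382 CPM, were near the bottom of the order.

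Il21, the cytokine through which these T cells help B cells, reached 10 CPM in 1 of 16 classes in CD163_NC and in 2 in CD163_FL. CD4 T cells had 80.6 CPM (75 to 86.6) in CD163_NC, 9.58 times the level of the next group, an unnamed cluster of low depth, and 13.2 (11.5 to 15.1) in CD163_FL. B cells had 0.651 and 0.191 CPM, and germinal center B cells 9 UMIs in 3 cells and no UMI. Regulatory T cells had a single UMI in each library. CD4 T cells held 81.0% of the 931 Il21 UMIs of CD163_NC and 54.8% of the 394 of CD163_FL. Cycling cells held 5.26% and 38.3%, most of them in cluster 20, led among others by the T cell cytotoxic genes Gzmb and Gzmk, which had 38.3 CPM in CD163_NC and 10.5 in CD163_FL. In CD163_FL the CD4 T cell level was 1.80 times (1.45 to 2.23) that of the cycling cells, and the unnamed cluster ranked above both on 1 UMI.

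Sostdc1 encodes a secreted antagonist of BMP and Wnt signalling. Its level in CD4 T cells was 33.6 CPM (30 to 37.5) in CD163_NC, from 314 UMIs, and 0.736 (0.380 to 1.29) in CD163_FL, from 12. Cluster 0 alone held 88.6% of the 351 Sostdc1 UMIs of CD163_NC and 54.5% of the 22 of CD163_FL. B cells had 0 of 1937 and 0 of 1206 cells with a UMI, and germinal center B cells 2 UMIs and none. In CD163_FL the highest level was that of epithelial cells, at 2.40 CPM from 7 UMIs in 2 cells, 3.26 times (1.09 to 8.99) that of CD4 T cells. The interval takes each UMI as independent, so with 2 cells it does not settle this order. In CD163_NC 14 UMIs lay in the unnamed cluster 5.

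Bcl6, the repressor that sets the follicular helper and germinal center fates, was the broadest of the 6, at 10 CPM or more in 14 of 16 classes in CD163_NC and in 15 in CD163_FL. In CD163_NC dendritic cells had 148 CPM, the unnamed cluster 5, led by Cxcl2, Cd14 and Il1b, 139, group 3 innate lymphoid cells 133, natural killer and group 1 innate lymphoid cells 122, CD4 T cells 117 (110 to 124) and germinal center B cells 114. The neighbours in the first 6 places of that order had intervals of their ratio that included equal levels. In CD163_FL the levels were 135, 170, 82.1, 156, 50.7 (47.3 to 54.2) and 154 in the same classes, and CD4 T cells were in place 11. The natural killer and group 1 innate lymphoid class also carried T cell RNA, as given above. Plasma cells were low in both, at 3.22 and 3.94 CPM.

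Tox2, an HMG-box protein that promotes follicular helper differentiation, was highest in regulatory T cells in both libraries, at 142 and 242 CPM. CD4 T cells had 120 CPM (113 to 127) in CD163_NC, and the ratio of regulatory to CD4 T cells, 1.19 (0.975 to 1.44), includes equal levels. In CD163_FL CD4 T cells had 34.8 (32.0 to 37.8) and were in place 7. Group 2 innate lymphoid cells had 35.1 and 88.9 CPM, group 3 innate lymphoid cells 20.0 and 67.9, and plasma cells 19.3 and 40.0. B cells had 2.14 and 1.14.

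**Figure D1:**
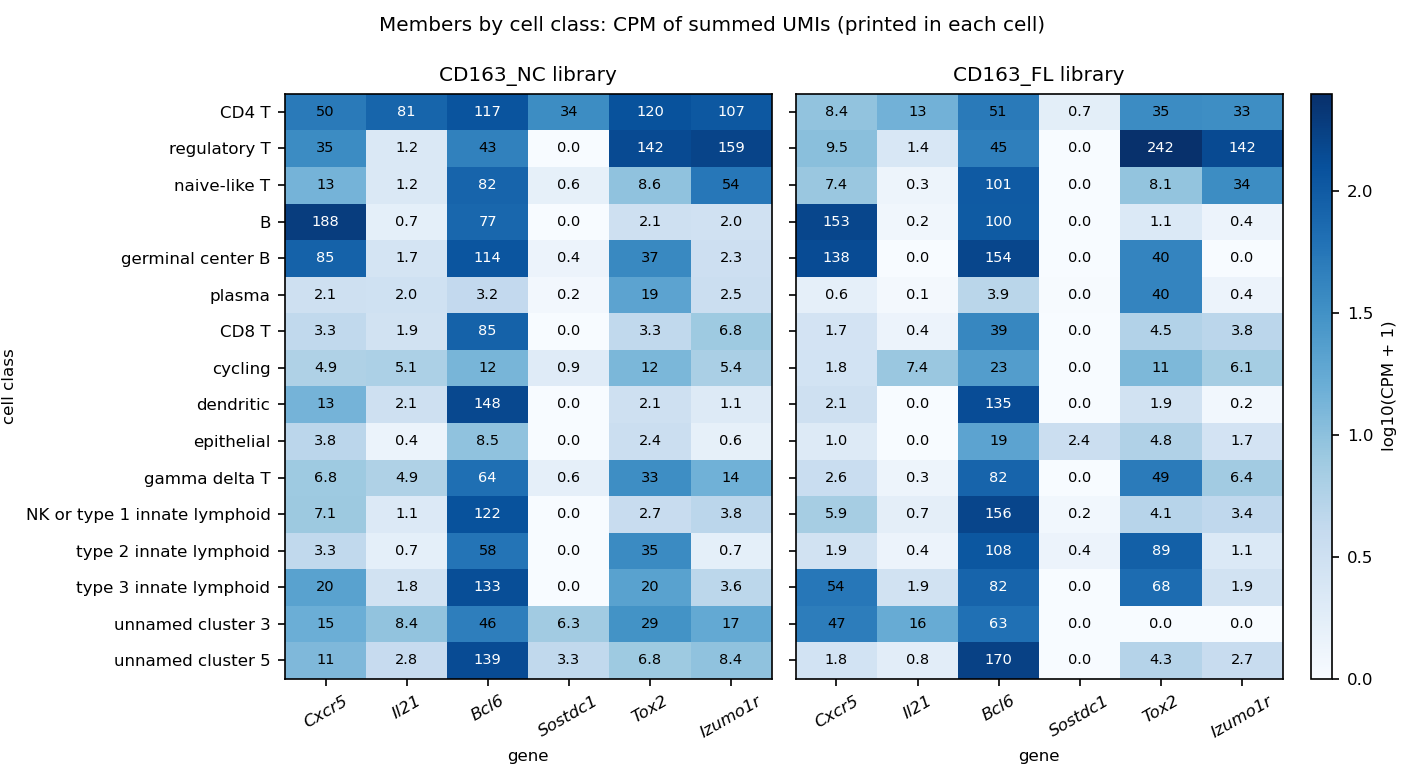
Level of each of the 6 genes (columns) by cell class (rows) in CD163_NC and CD163_FL, with the CPM printed in each field and the colour on a log10(CPM + 1) scale. Cxcr5 is highest in B cells, Izumo1r and Tox2 in regulatory T cells, Bcl6 is spread over most classes, and Sostdc1 and Il21 of CD163_NC are highest in CD4 T cells.

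Set against B cells of the same library, 5 of the 6 genes were at least 1.5-fold higher in CD4 T cells of CD163_NC, where 29.1% of 12251 genes were higher and 18.8% lower. Il21 was 124 times higher (59.9 to 309), Tox2 56.0 times (37.1 to 88.7), Izumo1r 54.8 times (35.6 to 88.9) and Bcl6 1.51 times (1.38 to 1.66). Sostdc1, with no UMI in B cells, was at least 120-fold higher, taking 3 UMIs as the B cell floor. Cxcr5 was at 0.267 (0.241 to 0.295) of its B cell level. In CD163_FL 3 of the 6, Il21, Tox2 and Izumo1r, were measured at least 1.5-fold above B cells, where 31.7% of 11844 genes were higher and 24.9% lower, and Bcl6 was at 0.507 of the B cell level. Sostdc1 had 12 UMIs against none there, which gives at least 1.29-fold.

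Against germinal center B cells of CD163_NC, Bcl6 was level, at a ratio of 1.02 (0.926 to 1.13), Cxcr5 was at 0.589, and Tox2 was 3.22 times, Il21 47.5 times and Izumo1r 47.3 times higher in CD4 T cells. That is 4 of 6 genes past 1.5-fold with Sostdc1, which rests on 2 germinal center UMIs, against 29.8% of all genes, with 31.8% lower. In CD163_FL Bcl6 was at 0.329 and Cxcr5 at 0.0610 of the level in germinal center B cells, and Tox2 was at 0.861 (0.577 to 1.34), where 28.9% of genes were higher and 31.9% lower in CD4 T cells. Il21 and Izumo1r, with no UMI in those 54 germinal center B cells, were at least 2.73-fold and 6.79-fold higher in CD4 T cells, with 3 UMIs as the floor. Against all kept cells outside the CD4 T, B and germinal center B cell classes as a whole, all 6 were at least 1.5-fold higher in CD4 T cells of CD163_NC, from 3.30 times for Bcl6 to 61.5 times for Sostdc1, where 29.1% of 16449 genes were higher and 33.5% lower. In CD163_FL the same ratios ran from 0.906 for Bcl6 to 7.19 for Il21, where 14.8% of 17107 genes were higher and 36.5% lower.

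Between the libraries, 5 of the 6 genes were at least 1.5-fold lower in CD163_FL within cluster 0, where, among the 3 CD4 T cell clusters, 5 of them were highest in both libraries, and Il21 was lower in CD163_FL in all 3 clusters. In cluster 0 (499 cells in CD163_NC, 154 in CD163_FL) Sostdc1 stood at 89.1 against 11.3 CPM, a log2 ratio of CD163_FL to CD163_NC of -2.98 (-3.95 to -2.16), and Il21 at 84.5 against 4.70, a log2 ratio of -4.17 (-5.80 to -2.93) that rests on 5 UMIs in CD163_FL. Cxcr5 was at 109 against 58.3 CPM (log2 -0.91), Izumo1r at 213 against 118 (log2 -0.86) and Tox2 at 286 against 182 (log2 -0.65). Bcl6, at 215 against 173 CPM (log2 -0.31), was the closest to equal. Of all 9349 genes measured in cluster 0, 19.5% were at least 1.5-fold lower and 12.9% higher, and their median was -0.01. Cxcr5, Bcl6, Sostdc1, Tox2 and Izumo1r were higher in cluster 0 than in clusters 1 and 4 of the same library. Il21 of CD163_NC differed less, at 84.5 CPM in cluster 0, 79.9 in cluster 4 and 67.9 in cluster 1. In CD163_FL the Il21 level was lower in cluster 0 than in either.

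Clusters 1 and 4 came mainly from opposite libraries, 93.9% of cluster 1 from CD163_FL and 81.8% of cluster 4 from CD163_NC, so cluster and library cannot be told apart there. In cluster 1 (130 and 1993 cells) Il21 was at 67.9 against 12.2 CPM, Cxcr5 at 18.3 against 4.72 and Izumo1r at 57.5 against 25.8, and these 3 of 5 measured genes were at least 1.5-fold lower, where 16.3% of genes were and 18.0% were higher. Tox2, at 27.4 against 24.6, and Bcl6, at 51.0 against 39.8, were nearer to level. In cluster 4 (948 and 211 cells) Il21 was at 79.9 against 35.8 CPM and Cxcr5 at 14.3 against 7.73, the latter on 8 UMIs in CD163_FL. These were 2 of 5 measured genes past 1.5-fold lower, where 16.4% of all genes were and 10.9% were higher. Bcl6 (59.3 and 73.4), Tox2 (19.6 and 24.2) and Izumo1r (41.4 and 44.5) were slightly higher in CD163_FL. Sostdc1 had 1 and 2 UMIs in these clusters of CD163_NC and none in CD163_FL.

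Summed over the 3 clusters, all 6 genes were at least 1.5-fold lower in CD163_FL, where 21.7% of 12302 measured genes were and 10.1% were higher. The log2 ratios were -5.51 (-6.48 to -4.69) for Sostdc1, -2.61 (-2.83 to -2.39) for Il21, -2.58 (-2.86 to -2.30) for Cxcr5, -1.78 (-1.93 to -1.63) for Tox2, -1.70 (-1.85 to -1.54) for Izumo1r and -1.20 (-1.34 to -1.07) for Bcl6. The median of the 12302 genes was -0.08. The count of 6 rests on how CD4 T cells are drawn. At a clustering resolution of 0.5 it became 4, with Bcl6 at -0.33, Tox2 at 0.10 and Sostdc1 counted on 4 against 0 UMIs, and there 94.4% of the cluster 0 cells of CD163_NC and 78.6% of those of CD163_FL were named regulatory T cells and so were left out. With all cells thinned to 1000 UMIs before clustering it also became 4, with Bcl6 at -0.02 and Tox2 at -0.18, and there cluster 0 mostly stayed while 77.5% and 79.4% of cluster 1 were named regulatory T cells. Cluster 0 made up 31.6% (29.4 to 34) of the CD4 T cells of CD163_NC and 6.53% (5.57 to 7.60) of those of CD163_FL. Its 10 leading genes ran from -0.88 to 0.72 in log2 ratio within the cluster, with a median of -0.05, and 3 of them (Ntrk3, Plagl1 and Lrig1) were past 1.5-fold, so the cluster was not fully alike in the libraries. In sums such as these, fewer cells of a kind and less RNA per cell cannot be told apart.

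**Figure D2:**
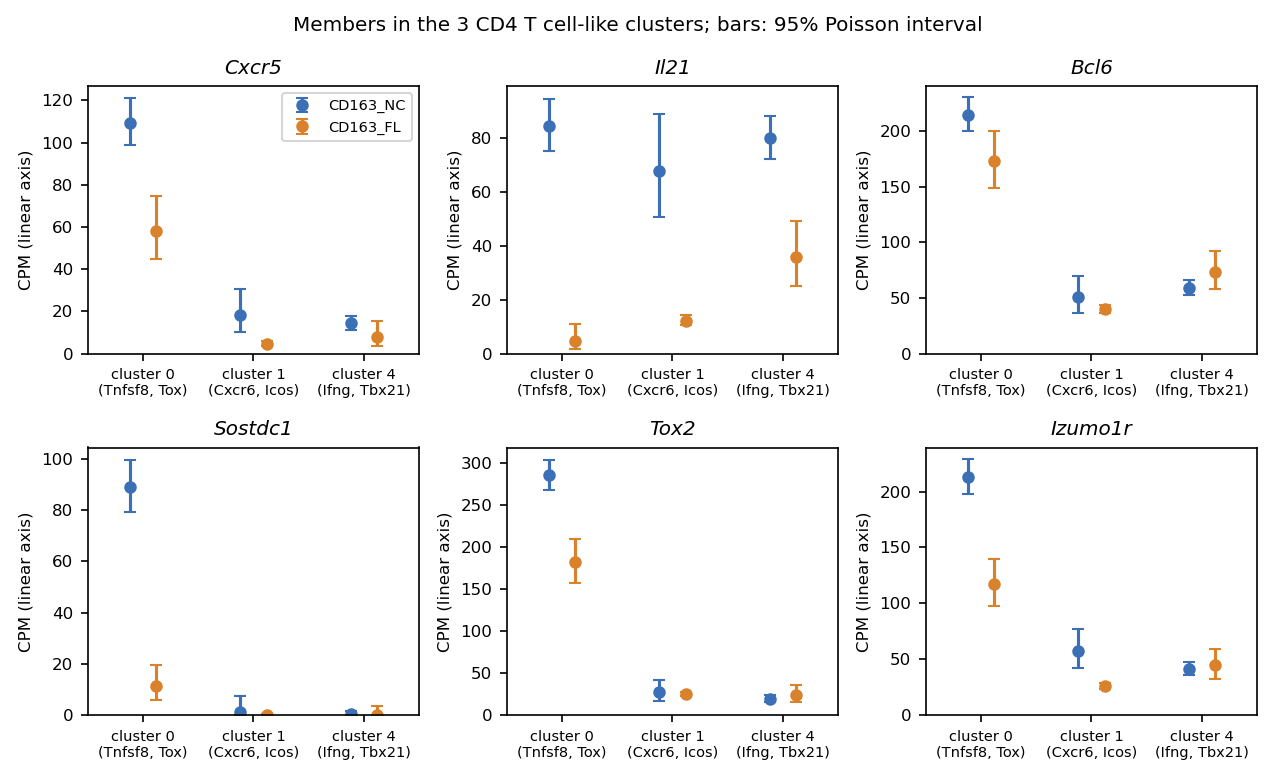
Level in CPM of each gene in clusters 0, 1 and 4, the clusters of the CD4 T cell-like class, in CD163_NC and CD163_FL, with 95% Poisson intervals. Cxcr5, Bcl6, Sostdc1, Tox2 and Izumo1r are highest in cluster 0 in both libraries, while Il21 in CD163_FL is highest in cluster 4.

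Outside the CD4 T cells the 6 genes did not share a direction, but lower Cxcr5 and Izumo1r were not particular to CD4 T cells. In regulatory T cells Tox2 was higher in CD163_FL (log2 0.77, 0.43 to 1.12), Cxcr5 was lower on 29 and 7 UMIs (log2 -1.87), and Izumo1r (-0.16) and Bcl6 (0.05) were within 1.5-fold, in a class where 15.7% of genes were lower and 15.6% higher. In group 2 innate lymphoid cells Tox2 (log2 1.34) and Bcl6 (0.90), the measured genes of the 6 there, were both higher, where 15.6% of genes were and 21.9% were lower. In group 3 innate lymphoid cells Tox2 (1.76) and Cxcr5 (1.43) were higher and Bcl6 (-0.69) lower, where 15.2% and 22.8% of genes were. Germinal center B cells had 1 of 3 measured genes past 1.5-fold, Cxcr5 at 0.69, where 20.3% of genes were higher and 19.4% lower. In B cells Cxcr5 (-0.30) and Bcl6 (0.37) were within 1.5-fold. In the unnamed cluster 5, where the median of all genes was -0.30, Cxcr5 (-2.63, on 47 and 14 UMIs) and Izumo1r (-1.66) were lower. Cxcr5 was also lower in dendritic cells (-2.59, on 12 and 12 UMIs), epithelial cells (-1.87), cycling cells (-1.45) and naive-like T cells (-0.78). Izumo1r was lower in gamma delta (-1.08) and naive-like T cells (-0.65). In cycling cells Bcl6 (0.88) was higher and Izumo1r (0.16) within 1.5-fold. The cycling class joins cluster 8 (313 and 253 cells), with Ighg3 and Ighm among its leading genes, to cluster 20 (79 and 997 cells). Its Cd3e level was 62.6 CPM in CD163_NC and 215 in CD163_FL, and its Cd79a level 142 and 37.4. The make-up of this class thus differed, and its ratios, with that of Cxcr5, cannot be read as a change within 1 cell kind.

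Izumo1r and Il21 were also lower in CD163_FL in plasma cells, and the former in B cells, where their levels are low, while Tox2 had no common direction. Izumo1r was at 21 against 2 UMIs and Tox2 at 23 against 6 in B cells, 2 of 4 measured genes past 1.5-fold lower, where 15.1% of genes were and 11.7% were higher. In plasma cells Il21 was at 52 against 3 UMIs, Izumo1r at 63 against 9 and Cxcr5 at 54 against 15, while Tox2 was higher, at 19.3 and 40.0 CPM (log2 1.05, 0.89 to 1.21). That is 3 of 5 measured genes lower and 1 higher, where 16.2% and 12.8% of genes were. The plasma cell class sums cluster 6 (1349 and 1464 cells) and the deeper cluster 7 (142 and 35 cells). At least 2 of the 6 genes were found in 22.5% and 25.7% of cluster 7, against 1.63% and 2.73% of cluster 6. The part of cluster 7 in the plasma cell ratios was not tested. In CD8 T cells Bcl6 was at 84.8 and 38.8 CPM (log2 -1.13, -1.33 to -0.93), Cxcr5 at -0.92 on 12 and 29 UMIs and Izumo1r at -0.84 on 25 and 64, so that 3 of 4 measured genes were past 1.5-fold lower, where 22.3% of genes were and 14.1% were higher. Tox2, the fourth, was at 0.47 on 12 and 76 UMIs. The CD8 T cell class sums cluster 10, with 32 cells of CD163_NC and 2145 of CD163_FL, and cluster 16, with 716 and 341. In these CD8 T cell sums cluster and library cannot be told apart.

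The share of CD4 T cells with at least 1 UMI gave the same picture. Tox2 was detected in 26.3% of CD4 T cells of CD163_NC and 11.4% of those of CD163_FL, Bcl6 in 31.9% and 18.8%, Izumo1r in 30.2% and 14.2%, Il21 in 19.4% and 5.68%, Cxcr5 in 16.2% and 4.16% and Sostdc1 in 4.25% and 0.254%. CD4 T cells had a median of 5442 and 6339 UMIs, so the library with the higher shares was the shallower. B cells, with medians of 4971 and 3958 UMIs, had Il21 in 0.361% and 0.0829% of cells, Tox2 in 1.19% and 0.332% and Izumo1r in 0.981% and 0.166%. The comparison shares were 1.47% and 1.01% for Cxcr5 in CD8 T cells (medians 4771.5 and 6427.5 UMIs) and 4.69% and 5.60% for Bcl6 in plasma cells (medians 17165 and 16506). With each cell thinned to 1000 UMIs, which left out 22 and 24 shallower CD4 T cells, the shares were 3.92% and 0.728% for Cxcr5, 5.47% and 1.24% for Il21, 8.94% and 4.71% for Bcl6, 1.09% and 0.0428% for Sostdc1, 8.75% and 3.0% for Tox2 and 8.10% and 2.36% for Izumo1r. All 6 thinned shares were lower in CD163_FL.

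Among cells with a UMI, Sostdc1 and Il21 were uneven. In CD163_NC 67 CD4 T cells had Sostdc1, with a median of 2 and a highest of 25 UMIs, and the 10 highest cells held 46.5% of its UMIs. Only 6 CD4 T cells of CD163_FL had Sostdc1, with at most 5 UMIs. Il21 was found in 306 CD4 T cells of CD163_NC, with a mean of 2.46 and a highest of 30 UMIs, and in 134 of CD163_FL, with 1.61 and 8. Without the highest cell of each library, the log2 ratio in CD4 T cells was -6.17 for Sostdc1 and -2.60 for Il21.

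B cell RNA was also less frequent in CD4 T cells of CD163_FL. Cd79a, Cd79b and Ms4a1 summed to 27.9 CPM in CD4 T cells of CD163_NC and 8.52 in CD163_FL, and 13.9% and 5.47% of CD4 T cells had a UMI of at least 1 of them. In B cells Cxcr5 had 0.106 and 0.124 UMIs for each UMI of these 3 genes, and in CD8 T cells 0.0984 and 0.161. In cluster 0 the ratio was 4.66 (3.66 to 5.99) and 4.43 (2.45 to 8.57), far above that of B cells in both libraries, while in cluster 4 it was 0.448 and 0.381. Without the CD4 T cells that had such a UMI, the log2 ratios were -2.73 for Cxcr5, -2.56 for Il21, -1.30 for Bcl6, -5.66 for Sostdc1, -1.87 for Tox2 and -1.76 for Izumo1r.

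The genes were found together in the same cells. At least 2 of the 6 were detected in 35.3% of CD4 T cells of CD163_NC (556 cells, 32.9 to 37.7) and in 10.9% of those of CD163_FL (258 cells). Within cluster 0 the shares were 76.4% and 46.8%, in cluster 1 19.2% and 8.23%, and in cluster 4 15.8% and 10.4%. Germinal center B cells reached 58.1% and 55.6% and B cells 15.8% and 12.9%, and regulatory T cells 32.0% and 34.8%. Thinned to 1000 UMIs, 6.24% and 0.771% of CD4 T cells had 2 or more. Of all thinned cells of CD163_NC with 2 or more, 161 in number, 53.4% lay in cluster 0 and 22.4% in B cells, while in CD163_FL 13.8% of 65 lay in cluster 0 and 32.3% in B cells.

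Cells with Sostdc1 often had others of the 6. Of the 67 CD4 T cells of CD163_NC with Sostdc1, 82.1% had Tox2, against 23.8% of cells without it, 64.2% had Bcl6 (against 30.5%) and 46.3% had Cxcr5 (against 14.8%). Of the 255 cells with Cxcr5, 62.4% had Tox2 and 58% Izumo1r, against 19.3% and 24.8% of the rest. For Il21 the shares with and without lay closer together. Of its 306 cells in CD163_NC, 36.6% had Bcl6 (against 30.8%) and 37.9% Tox2 (against 23.4%), and of its 134 cells in CD163_FL 11.2% had Tox2 (against 11.4%) and 4.48% Cxcr5 (against 4.14%). Deeper cells show more genes, and with cells thinned to 1000 UMIs the pairs were fewer and not all kept a gap. Of the 61 thinned cells with Cxcr5 in CD163_NC, 23.0% had Tox2 (13.2 to 35.5) against 8.17% of the rest, but 9.84% had Izumo1r (3.70 to 20.2) against 8.03%. Of the 17 with Sostdc1, 41.2% had Tox2 (18.4 to 67.1) against 8.39%.

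**Figure D3:**
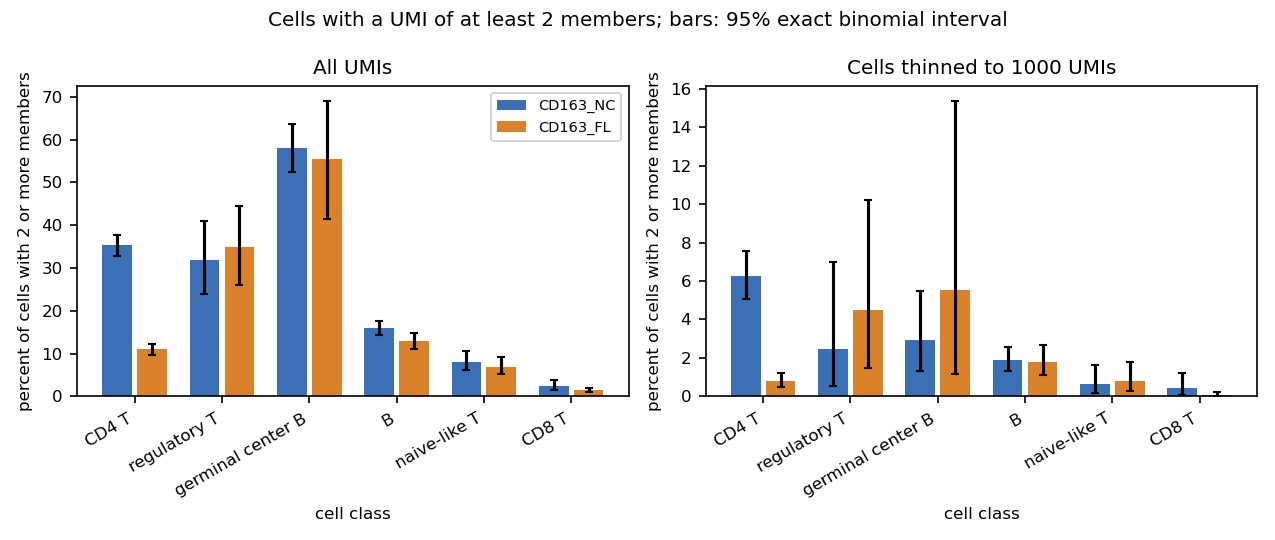
Percent of cells in 6 cell classes with a UMI of at least 2 of the 6 genes, at full depth (left) and with cells thinned to 1000 UMIs (right), with 95% exact binomial intervals. CD4 T cells are at 35.3% in CD163_NC and 10.9% in CD163_FL, and at 6.24% and 0.771% when thinned.

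Clustering only the CD4 and regulatory T cells, again without the 6 genes, gave 6 subclusters. The first, led by Aff3, Patj, Lrig1, Nsg2 and Ntrk3 with Ccr7 and Tcf7 among its 10 leading genes, held 492 cells of CD163_NC (29.0% of those clustered) and 185 of CD163_FL (7.49%). Tox2 stood there at 295 and 151 CPM, Izumo1r at 220 and 118, Bcl6 at 218 and 137, Cxcr5 at 111 and 48.5, Sostdc1 at 87.3 and 10.4 and Il21 at 76.9 and 4.33. A subcluster of 1044 and 135 cells, led by the chemokine gene Ccl4, the heat shock genes Hspa1b and Hspa1a, the immediate early genes Fosb, Fos and Egr1, the neutrophil gene S100a9 and the Th1 regulator Tbx21, had an Il21 level of 82.0 and 52.8 CPM with 14.0 and 2.94 CPM of Cxcr5. The Il21 level of CD163_NC was thus about the same in cells with little Cxcr5 as in the subcluster where the other 5 genes were highest. The part that heat shock and immediate early RNA has in this was not tested.

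The germinal center B cells that such T cells are known to help were a smaller share of the cells of CD163_FL. CD163_NC had 310 of them among 9756 kept cells, a share of 3.18% with limits of 2.84% and 3.55%. CD163_FL had 54 among 13715, a share of 0.394% with limits of 0.296% and 0.513%. The ratio of the shares was 0.124 (0.0929 to 0.165). Of B and germinal center B cells together they were 13.8% (12.4 to 15.3) and 4.29% (3.24 to 5.56), a ratio of 0.311 (0.235 to 0.411). B cells outside the germinal center class were 19.9% and 8.79% of kept cells, a ratio of 0.443, while CD4 T cells were 16.2% and 17.2%. Gating on UMIs of germinal center marker genes in place of clusters gave 6.04% and 1.87% and a ratio of 0.309 (0.268 to 0.357). The shares are of sorted CD45+ cells from a gradient, and how many follicles each preparation held was not tested.

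**Figure D4:**
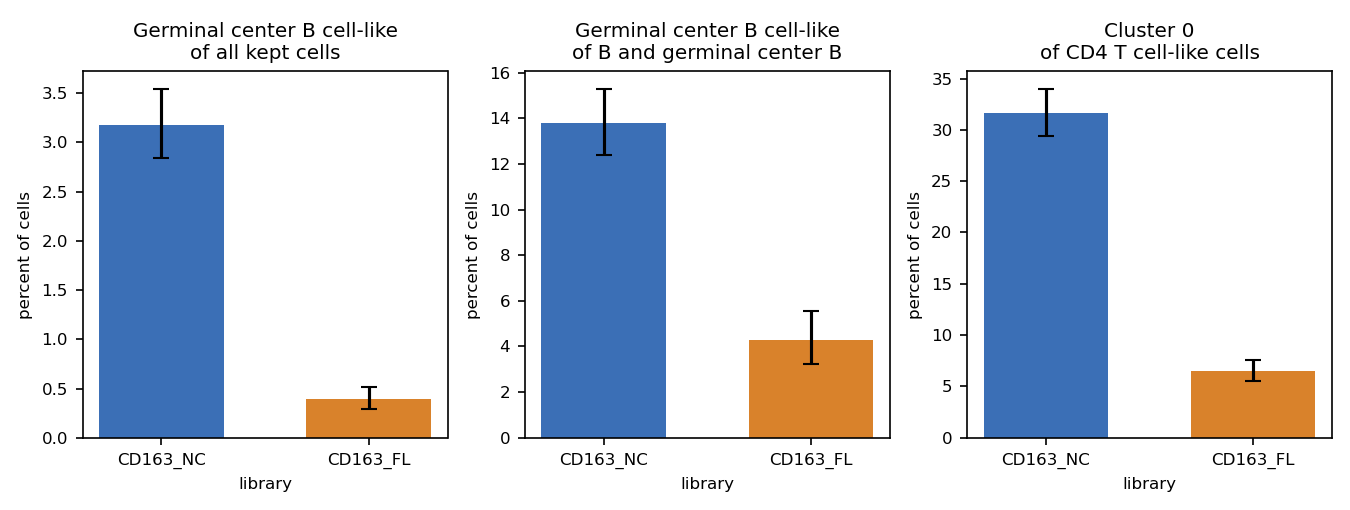
Share of cells in CD163_NC and CD163_FL, in percent with 95% exact binomial intervals, for germinal center B cell-like cells of all kept cells, the same cells of B and germinal center B cells, and cluster 0 of CD4 T cell-like cells. The bars stand at 3.18% and 0.394%, at 13.8% and 4.29%, and at 31.6% and 6.53%.

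Inside the germinal center class, 8 of 10 germinal center genes were within 1.5-fold between the libraries. Of 10 germinal center genes 1 was at least 1.5-fold higher in CD163_FL, where 20.3% of 10021 genes were, and 1 was lower, where 19.4% were, with a median log2 ratio of 0.18 beside 0.07 for all genes. Basp1 was at 539 and 785 CPM, the G protein regulator Rgs13 at 236 and 356, the transcription factor Mef2b at 192 and 125 (log2 -0.62) and the DNA repair gene Neil1 at 142 and 198. Bcl6 was at 114 and 154 CPM and Cxcr5 at 85.2 and 138. Il21r, the receptor of IL-21, was at 179 and 291 CPM in germinal center B cells and 369 and 482 in other B cells, and at 25.5 and 12.8 in plasma cells. Of 8 measured genes by which cells receive or answer the help, 4 were higher in CD163_FL in germinal center B cells and none lower (median 0.60).

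Other genes of the follicular helper program were lower in CD163_FL only in part, in the summed CD4 T cells. Of 12 measured surface and signalling genes, 7 were at least 1.5-fold lower in CD163_FL and 1 was higher, with a median of -0.72, beside 21.7% lower, 10.1% higher and a median of -0.08 over all 12302 genes. Icos, the costimulatory receptor needed for follicular helper cells, was the higher one, at 914 and 1852 CPM (log2 1.02). Tnfsf8 was at 607 and 344, Cd40lg, the ligand that licenses B cells, at 155 and 65.9 (log2 -1.23), and Sh2d1a, the adaptor SAP, was level at 151 and 150. Of 10 measured transcription factors 5 were lower and 2 higher, with a median of -0.57. Stat3 was at 1106 and 1893 CPM, Maf at 1206 and 988, Tox at 1014 and 762 and Nfatc1 at 405 and 244. Of 3 measured effector genes 2 were lower, with Angptl2 at 33.7 and 11.4 CPM, Rgs16 level at 127 and 125, and Il4 on 27 against 3 UMIs.

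Genes that oppose the program or mark other helper fates lay on both sides of 0 in log2 ratio, beside 21.7% of all genes lower and 10.1% higher, with a median of -0.08. Of 9 genes that restrain follicular helper fate 4 were higher and 2 lower, with a median of 0.35, and Foxo1 was at 552 and 705 CPM, Id2 at 539 and 670, Selplg at 229 and 347 and Klf2 at 252 and 141. Of 9 measured genes by which other cells receive or answer the help, 3 were higher and 1 lower, with a median of 0.09, and Il21r was at 479 and 353 CPM. Th1 genes had 3 higher and 2 lower of 6 (median 0.63), with Il18r1 at 270 and 1138 CPM (log2 2.07), Il12rb2 at 359 and 682 and Ifng at 527 and 327. Th17 genes had 2 higher and 3 lower of 6 measured (median -0.36), with Rora at 801 and 1382. Regulatory T cell genes had 3 higher and 2 lower of 7, with a median of 0.22. Of 8 T cell identity genes 1, Trac, was past 1.5-fold, at -0.60, and the median was -0.17.

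Genes of other cell kinds were also lower in the CD4 T cells of CD163_FL, where 21.7% of all genes were lower and 10.1% higher, with a median of -0.08. This held for 5 of 5 measured B cell identity genes (median -3.10, Cd79a at 13.8 and 4.29 CPM), for 3 of 4 macrophage genes (median -0.74, Cd68 at 9.52 and 5.95, C1qb at 3.21 and 1.84) and for 3 of 3 epithelial genes (median -1.33, Krt8 at 16.5 and 4.42), and 1 of 7 germinal center genes was lower (median -0.30). These levels are low in both libraries. For B cell RNA the ratios without the cells that carried it are given above, and the part of the other RNA was not tested.

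Within cluster 0 some listed surface genes were near level between the libraries and others were lower in CD163_FL. Tnfsf8 was at 1210 and 1153 CPM, Slamf6, an adhesion receptor of T and B cells, at 210 and 221 and Sh2d1a at 257 and 246. Icos was at 712 and 894 CPM. Cd40lg was at 117 and 52.7 CPM, Btla at 178 and 113, Cd200 at 47.3 and 29.1 and Pdcd1, the inhibitory receptor PD-1, at 26.3 and 15.0.

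**Figure D5:**
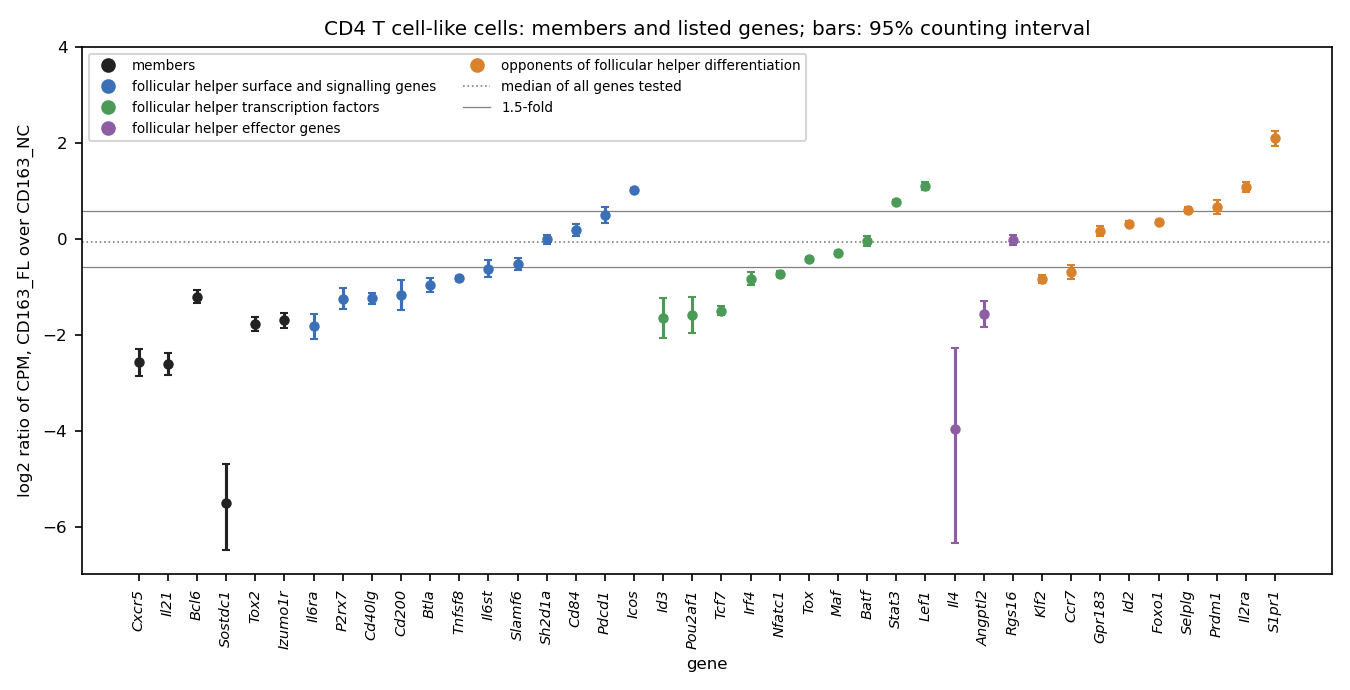
Log2 ratio of CD163_FL to CD163_NC in CD4 T cell-like cells for the 6 genes and for the measured surface, transcription factor, effector and opposing genes, with 95% counting intervals, lines at 1.5-fold and a dotted line at the median of all genes. The 6 genes lie between -5.51 and -1.20, while the genes that restrain the fate have a median of 0.35.

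Over 32 points (16 classes in 2 libraries), the genes whose level was most like the mean of the 6 were Lbh (Pearson r = 0.772), Cd4 (0.679), Trib2 (0.655), Vamp5 (0.654), Angptl2 (0.654), Maf (0.646), Tnfrsf4 (0.642), Carmil2 (0.633), Slamf1 (0.633) and Nfatc1 (0.631), out of 6914 genes. Maf, Nfatc1 and Angptl2 are in the follicular helper lists above, Cd4 and Tnfrsf4 are class markers, and Slamf1 encodes the receptor SLAM. Among the 6 themselves r was 0.655 for Il21 with Sostdc1, 0.518 for Tox2 with Izumo1r, 0.424 for Cxcr5 with Bcl6 and -0.0978 for Bcl6 with Tox2. The points share the libraries and their free RNA, and these values are a description.

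Within CD4 T cells, cells with 2 or more of the 6 genes were set against cells with none, 556 against 561 in CD163_NC and 258 against 1411 in CD163_FL. The 12 genes with the largest ratio in both libraries, out of 6462, included Nsg2 (24.3 and 14.8 times), Acsl3 (21.2 and 7.42), Lrig1 (11.7 and 7.1), Aff3 (8.86 and 6.98), Akap6 (20.9 and 6.40), Plagl1 (6.88 and 5.77), Igf1r (8.25 and 5.66), Cd83 (7.99 and 4.79), Nav2 (10.1 and 4.51), Sgip1 (14.6 and 4.17) and Ntrk3 (11.5 and 4.15). Nsg2, Acsl3, Lrig1, Aff3, Igf1r and Ntrk3 were also among the 10 leading genes of the first subcluster. The cells with 2 or more genes were deeper, with medians of 6671 against 4529 UMIs in CD163_NC and 8019 against 5807 in CD163_FL, and the part of depth in the choice of cells was not tested.

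Genes of the lists, named here after their values were seen, had a range of the same ratio. It was 7.27 in CD163_NC and 2.28 in CD163_FL for Cd200 and 5.54 and 2.09 for Btla, both inhibitory ligand or receptor genes of follicular helper cells. The IL-6 receptor gene Il6ra was at 5.36 and 2.92, Tcf7 at 4.14 and 2.72, Slamf6 at 4.01 and 1.75, Tox at 3.93 and 3.21 and Tnfsf8 at 3.91 and 3.83. Foxp3, the regulatory T cell factor, had 20 against 0 UMIs in CD163_NC and 11 against 3 in CD163_FL, a ratio of 13.9 there, and Il23r, a Th17 receptor gene, was at 2.86 and 9.35. Prdm1, the repressor that opposes Bcl6, was at 0.395 and 0.814, Id2 at 0.394 and 0.853 and Tbx21 at 0.399 and 0.911. Prdm1 and Id2 are on the list of genes that restrain the fate, which did not share a direction. On that list Il2ra (0.340 and 0.843) and Selplg (0.465 and 0.764) were also lower, while Ccr7 was higher (4.48 and 2.85). Foxo1 (1.19 and 0.917) and Klf2 (0.889 and 0.930) were near level. S1pr1 (0.970 and 0.654) and Gpr183 (0.943 and 0.706) were lower mainly in CD163_FL. Ifng was at 0.362 in CD163_NC and 1.39 in CD163_FL. Icos (0.795 and 0.787) and Maf (0.844 and 0.808) were slightly lower in cells with 2 or more of the 6, in both libraries. Pdcd1 was at 0.822 and 0.799, and its interval in CD163_NC (0.654 to 1.03) includes equal levels.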

How the data were processed

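The deposited values are whole-number UMI counts per gene and barcode in 2 filtered matrices, 10390 barcodes in CD163_NC and 15270 in CD163_FL, written by Cell Ranger 7.1.0 per the file headers. The submitters' processing notes name mm10 and Seurat 4. Cells with at least 500 UMIs, 200 genes and at most 10% mitochondrial UMIs were kept, and Scrublet removed 256 and 664 called doublets (2.47% and 4.40% of cells were called, at preset rates of 8.31% and 12.2%). Clustering used scanpy 1.11.5 (Python 3.11.15): log counts per 10000, 2000 variable genes, 30 components, 15 neighbours, Leiden resolution 1, without library integration. Cd163, sex-linked genes, receptor V segments and the 6 genes were left out. Each cluster was scored on 22 marker lists, and lists within 0.5 of the best score on the log2 scale were candidates. The candidate with most markers among the 10 leading genes gave the name, with ties going to the higher score. A cluster stayed unnamed with under 3 markers detected, at low depth without a leading marker, or where its leading genes held more markers of another type. The naive-like and cycling lists were exempt from this veto, so cluster 0, with Tcf7 and no CD4 T cell marker among its leading genes, kept its name. This naming rule was set after the clusters were seen, and 2 clusters stayed unnamed, 1 of them led by haemoglobin genes at low depth. The 6 genes and all lists were chosen with earlier results of these data known.

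A class level is a gene's UMIs per 1000000 UMIs of the class (CPM). Intervals are exact Poisson for CPM, Clopper-Pearson for shares and conditional binomial for ratios. Ratio intervals were checked on independent Poisson counts simulated at the pooled CD4 T cell rates, and the others on simulated binomial and Poisson counts. Such counts meet the assumption of the intervals, so the check cannot cover the clumping of UMIs in single cells. A gene counts as measured with 20 UMIs over both groups and as higher or lower past 1.5-fold. With 1 library per group no test was made. Listed genes are named by most UMIs in the class, 2 to 4 per list. Likeness across classes took the 10 genes with the highest r, from log2(CPM + 1), and likeness within CD4 T cells the 12 genes with the largest smaller ratio of both libraries. Alternatives were other resolutions, filters, doublets kept, the 6 genes kept in clustering, thinned cells, UMI-gated classes, scaling to the median gene and pooling with regulatory T cells. Others were added after the data were seen: leaving out cells with B cell UMIs, shared barcodes or the highest cell. Some genes that the rules select are not reported here.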

Additional observations from a re-analysis of the deposited data

How the results depend on the processing

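The log2 ratio of the 6 genes between libraries in CD4 T cells kept its sign under every alternative but 1: Tox2 was at 0.10 at clustering resolution 0.5. There and with cells thinned to 1000 UMIs before clustering, 4 and not 6 genes were past 1.5-fold, at resolution 0.5 with Sostdc1 counted on 4 against 0 UMIs and given no ratio. At resolution 0.5 the CD4 T cell class, then 1310 and 2655 cells, kept 4.21% and 3.25% of the cells of cluster 0. With thinned cells the class, then 1667 and 565 cells, kept 93.5% and 78.6% of cluster 0, and 77.5% and 79.4% of cluster 1 were named regulatory T cells, with 48.8% and 47.5% of cluster 4. The range over alternatives was -2.84 to -1.53 for Cxcr5, -3.22 to -1.17 for Il21, -1.36 to -0.02 for Bcl6, -6.17 to -2.96 for Sostdc1 and -1.84 to -0.64 for Izumo1r. The share of CD4 T cells with 2 or more genes was 15.6% in CD163_NC at resolution 0.5, 39.3% with doublets kept and 5.64% when thinned, and in CD163_FL 7.91% at resolution 0.5, 9.70% at resolution 2, 1.95% when thinned and 13.2% with UMI-gated classes. The ratio of germinal center B cell shares was 0.309 with UMI-gated classes and 0.311 as a share of B cells. No paired analysis was possible because each group has 1 library. Depth limits Sostdc1 most, with 12 UMIs in CD4 T cells of CD163_FL.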

Other observations

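Receptors and ligands related to the 6 genes were found in several classes. Il21r, the receptor through which IL-21 acts, was at 387 and 741 CPM in naive-like T cells of CD163_NC and CD163_FL and at 447 and 262 in CD8 T cells. In the natural killer and group 1 innate lymphoid class, which also carried Cd3e, it was at 631 and 686. Its level was thus not particular to B cells in either library. Cd40, the receptor for CD40 ligand, was at 208 and 500 CPM in the unnamed cluster 5 and at 45.7 and 77.5 in B cells. Il6, a cytokine known to favour follicular helper differentiation, was at 37.1 and 133 CPM in cluster 5 and at 34.7 and 22.8 in dendritic cells. Cxcl13, the ligand of CXCR5, had 3 UMIs in cluster 5 of each library and none in B, germinal center B or dendritic cells. Il4, which follicular helper cells can make, was at 133 and 148 CPM in group 2 innate lymphoid cells and had 22 UMIs in cluster 0 of CD163_NC and none in that of CD163_FL. Summed over all kept cells, Bcl6 was at 53.5 and 57.7 CPM. These genes were chosen after their values were seen.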
